A study of Arabidopsis thaliana with 2 samples.

Results

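Of 10 Arabidopsis genes for SR-type splicing factors, 4 (SR34a, SR45, SR45a and RSZ33) had 1 assembled isoform each that departed from the annotation. The other 6 (SR30, SR34, SR34b, RSZ21, RSZ22 and RSZ32) had none. Every new isoform used a new 3′ splice site, or acceptor, 3 to 15 nt from an annotated one. None of these sites lay in the longest coding intron of its gene. The 10 genes were chosen by their gene codes, which gave 10 of the 33553 annotated genes and 31 of the 52608 transcripts in a merged transcript set.

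The set was assembled from stranded RNA-seq of siliques, the seed pods of Arabidopsis thaliana. The 2 libraries described by the labels both came from ago3-3 mutant plants of ecotype Col-0, grown in soil under long days, with siliques taken 1 to 5 days after pollination (n = 2). Col-0 wild type in duplicate is also named in the design. Its libraries were not analysed on their own here, though the merged set may hold structures from them. Both genotypes share the Col-0 background, and AGO3 is an Argonaute protein, which binds small RNAs.

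The merged set gives exon positions and 0 columns with a value per library. Depth is therefore unknown, and no level, replicate spread or comparison of ago3-3 with wild type could be computed. The sources used here do not state whether a structure came from ago3-3, from wild type or from both. Silique markers and the loss of AGO3 could not be checked by level, and AGO3 (AT1G31290) had 0 new isoforms beside its 1 annotated transcript. Annotated transcripts are carried into such a set with or without reads, so only assembled structures were read as built from reads. All counts below are descriptions, with no test.

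SR proteins bind pre-mRNA through RNA recognition motifs and recruit the splicing machinery through a region rich in arginine and serine. They help to choose splice sites, and many SR genes of plants are themselves spliced in several ways, often within 1 long intron. In Arabidopsis, SR30 and RSZ33 are known to alter the splicing of their own transcripts when overexpressed. A transcript whose stop codon lies well upstream of its last exon junction is a typical substrate of nonsense-mediated decay.

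The sites that the results turn on are the 4 new acceptors, shown here with their annotated neighbours in TAIR10.1 coordinates. Each sequence runs 5′ to 3′ on the strand of the gene, and the capitals mark the AG of the new and of the annotated acceptor. In SR34a (chr3:18333885-18333944, plus strand) and SR45 (chr1:5677068-5677127, minus strand) the first AG is the new one. In SR45a (chr1:2258816-2258875, minus strand) and RSZ33 (chr2:15670932-15670991, minus strand) the second AG is the new one.
SR34a: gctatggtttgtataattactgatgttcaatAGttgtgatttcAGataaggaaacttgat
SR45: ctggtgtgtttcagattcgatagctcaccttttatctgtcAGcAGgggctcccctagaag
SR45a: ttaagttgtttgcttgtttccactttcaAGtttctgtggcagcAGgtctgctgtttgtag
RSZ33: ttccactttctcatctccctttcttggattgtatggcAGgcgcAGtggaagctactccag

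By subfamily, new isoforms were found at 1 of 4 SR genes (SR34a), at both SR45-type genes and at 1 of 2 RS2Z genes (RSZ33). They were found at neither of the 2 RSZ genes, which had only a match to an annotated structure. The 10 genes held 26 annotated transcripts, 10 in the SR subfamily, 5 in the SR45 group, 6 in RSZ and 5 in RS2Z. The remaining 5 transcripts were assembled, 4 as new isoforms and 1 as the match. The share of 4 in 10 stood beside 19.0% of all annotated genes with a new isoform. The 10 genes have 6 to 14 annotated exons, and among all genes with that many exons the share was 39.2%. The members' share was close to this second background. No antisense transcript was assembled opposite any of the 10 genes.

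The 4 new isoforms held 5 new introns, of which 4 were alternative acceptors and 1 was an alternative 5′ splice site, or donor. Alternative acceptors made up 41.1% of new introns in the whole set. All 4 acceptor introns lay between the start and stop codon of the reference transcript, called coding here, and moved by a multiple of 3 nt. The SR45a acceptor lies inside a coding intron of the reference transcript (chr1:2258603-2259002). Its shift was measured from AT1G07350.2, so it does not describe the frame of the reference protein. Across all genes, 36.3% of coding alternative acceptors moved by a multiple of 3 nt, and 39.0% of those that moved by at most 15 nt did. The 4 acceptor introns were absent from the newer annotation of the reference, as were 74.3% of new introns of the whole set. The SR34a donor intron was present there. All 5 new introns began with GT and ended with AG. The members had 0 retained introns.

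**Figure D1:**
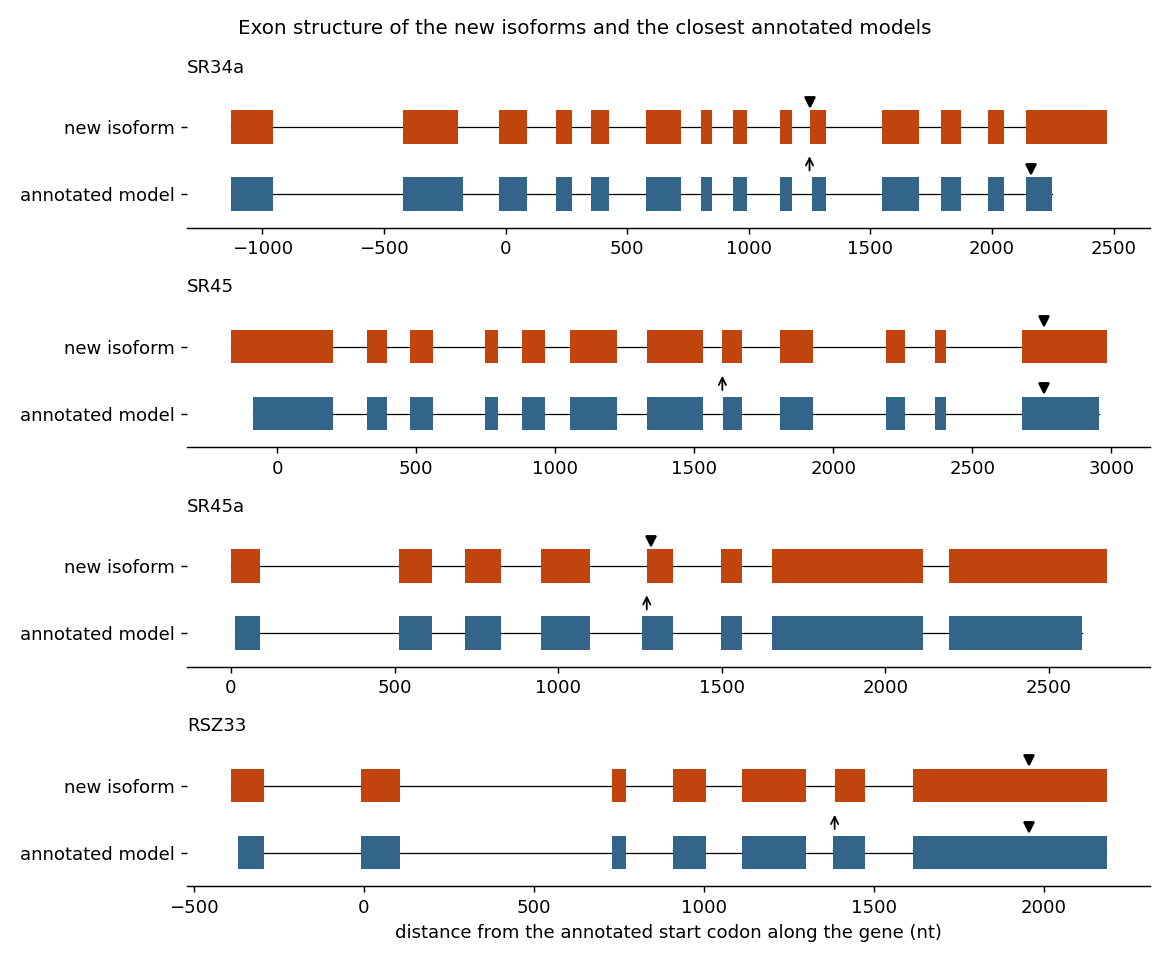
Exons (boxes) and introns (lines) of the 4 new isoforms, above the closest annotated model of the same gene, by distance in nt from the annotated start codon. Arrows mark new coding acceptors and triangles mark the first in-frame stop codon from the annotated start, which the annotated SR45a model lacks. The stop of the new isoform comes early in SR34a and SR45a and stays in the last exon in SR45 and RSZ33.

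SR34a (AT3G49430, chr3:18331539-18335041, plus strand) encodes an SR protein of the SR30/SR34 subfamily, related to human SRSF1. Its new isoform spliced chr3:18333847-18333917, an intron of 71 nt, where the annotated intron of 83 nt ends at 18333929. The acceptor lay 12 nt upstream of the annotated one in intron 9 of the reference transcript, after residue 175. Although the 12 added bases keep the length of the message in frame, they carry an in-frame stop. In the added stretch (chr3:18333918-18333929, plus strand) the stop codon is in capitals.
SR34a added bases: ttgTGAtttcag

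Translation from the annotated start gave 176 residues for the new SR34a isoform, against 300 for the closest annotated model, AT3G49430.3. The stop lay 363 nt upstream of the last exon junction, beyond the 50 nt taken here to make a stop premature. The 125 residues encoded downstream of the intron are 56.0% arginine and serine, against 18.9% in the 175 residues upstream. The truncated reading frame thus leaves out the arginine- and serine-rich part of the protein. The 50 residues around the splice point are 14.0% arginine and serine, against 34.3% in the whole protein. The same isoform also used a donor 21 nt upstream of an annotated one in the 5′ untranslated region. That intron was 170 nt (chr3:18332472-18332641), against 149 nt in the annotated form. The new isoform had 14 exons over 1649 nt and ran 98 nt past the annotated 3′ end.

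SR45 (AT1G16610, chr1:5675704-5678852, minus strand, named RNPS1 in the merged set) is an SR-like protein with arginine- and serine-rich regions on both sides of its RNA recognition motif. Its new isoform spliced chr1:5677086-5677153, an intron of 68 nt, against 71 nt in the annotated form that starts at 5677083. The new acceptor is the upstream AG of a CAGCAG tandem, 3 nt from the annotated one. It lies in intron 7, after residue 292 of the reference protein of 425 residues. It added 3 bases (cag). The new isoform encoded 408 residues, against 407 in AT1G16610.2, the closest annotated model, with the stop in the last exon.

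The annotated SR45 models AT1G16610.1 and AT1G16610.2 differ by another acceptor, 21 nt away, which sets 414 residues against 407. The new isoform carried the intron of AT1G16610.2 at that place (chr1:5677356-5677465) and added its 1 residue further downstream. AT1G16610.3 encodes 425 residues. The changed residue lies in an arginine- and serine-rich stretch. In the reference protein of 425 residues, the 50 residues around that point are 54.0% arginine and serine, against 41.6% in the whole protein. In the same protein 51.1% of the 133 residues downstream are arginine or serine, against 37.3% of the 292 upstream.

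SR45a (AT1G07350, chr1:2257425-2260101, minus strand) is an SR-like protein with an RNA recognition motif, and it is known in Arabidopsis for splicing changes under high light and heat. Its new isoform spliced chr1:2258831-2259002, an intron of 172 nt, against 157 nt in the annotated model AT1G07350.2. The acceptor lay 15 nt downstream, after residue 150, so that the 15 bases at chr1:2258831-2258845 were removed (minus strand). They are shown because they end in CAGCAG, whose last AG is the new acceptor.
SR45a removed bases: tttctgtggcagcag

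The new SR45a acceptor begins an exon of 81 nt (chr1:2258750-2258830), which is 96 nt in AT1G07350.2 and is skipped in AT1G07350.1. The skipping model encodes the full 382 residues. With the exon included, the new isoform encoded 154 residues and stopped 590 nt upstream of the last junction, a premature stop. Its 5′ end is the first base of the start codon (chr1:2260101), where AT1G07350.1 also begins, so the translation rests on that end. AT1G07350.2 starts 12 nt downstream of the first base of the start codon, so it could not be translated from there. Its longest open reading frame, of 129 residues, also stopped 590 nt upstream of the last junction. The early stop thus goes with inclusion of the exon in both models, at either acceptor. A stretch that matches the conserved RNP1 core of RNA recognition motifs spans residues 116 to 123, upstream of the exon. The 232 residues downstream of the splice point are 53.9% arginine and serine, against 28.7% in the 150 residues upstream. The 50 residues around it are 26.0% arginine and serine, against 44.0% in the whole protein.

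RSZ33 (AT2G37340, chr2:15670147-15672700, minus strand) belongs to the plant-specific RS2Z subfamily, with an RNA recognition motif and a pair of zinc knuckles. Its new isoform spliced chr2:15670947-15671031, an intron of 85 nt, against 79 nt in the annotated form. The acceptor lay 6 nt downstream in intron 5, after residue 144, and removed 6 bases (gcgcag). The new isoform encoded 288 residues, against 290 in AT2G37340.1, with the stop in the last exon. The spacing of cysteines and histidine that marks a zinc knuckle was found at residues 101 to 114 and 123 to 136, so the change follows the second knuckle. The 50 residues around it are 46.0% arginine and serine, against 33.1% in the whole protein, and 42.5% of the 146 residues downstream are, against 23.6% of the 144 upstream. This window was richer than the whole protein in SR45 and RSZ33 and poorer in SR34a and SR45a. The 5′ end of the new isoform lay 21 nt beyond the annotated one.

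**Figure D2:**
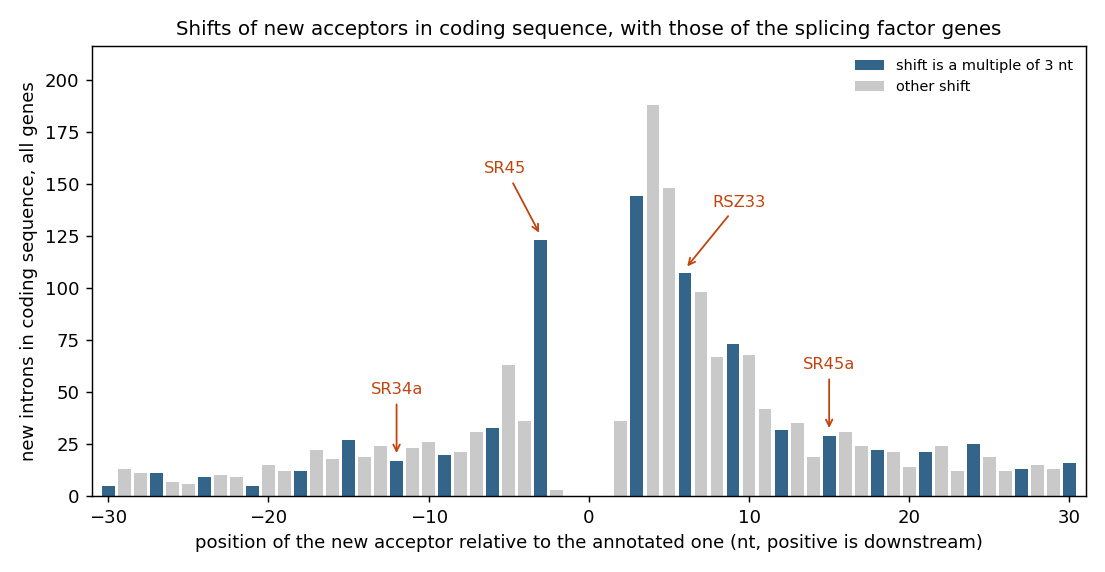
Number of new introns between start and stop codon in all genes (vertical axis) by distance of the new acceptor from the annotated one in nt (horizontal axis, positive is downstream, shown to 30 nt on either side). Arrows mark the shifts of the 4 splicing factor genes; 123 introns of all genes had the shift of SR45, 107 that of RSZ33, 29 that of SR45a and 17 that of SR34a.

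The 4 shifts were not equally common in the genome. Among coding acceptors of all genes, 123 lay 3 nt upstream as in SR45, and 107 lay 6 nt downstream as in RSZ33. Only 29 lay 15 nt downstream as in SR45a, and 17 lay 12 nt upstream as in SR34a. An AG at these distances was not equally frequent either, though in another order than the shifts, and a link between them was not tested. Among 127854 annotated nuclear introns, an AG ended 12 nt upstream of the acceptor in 0.957% and 3 nt upstream in 2.17%. An AG ended 6 nt downstream in 7.06% and 15 nt downstream in 7.85%.

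Counted over all 4 new isoforms, 2 had a premature stop (SR34a and SR45a) and 2 did not (SR45 and RSZ33). In the whole set, 49.1% of the new isoforms that could be translated from an annotated start had one. Among the 26 annotated transcripts of the 10 genes, 25 held the annotated start and 8 of these had a premature stop, in 6 genes. In all genes with 2 or more annotated transcripts the share was 11.9%. SR34b contributed 2 of the 8, with 178 and 278 residues, and its full-length protein of 292 residues came from the newer annotation alone. RSZ33 also contributed 2, with 55 and 60 residues. SR30, SR34, SR34a and RSZ32 contributed 1 each, with 256, 285, 297 and 54 residues.

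**Figure D3:**
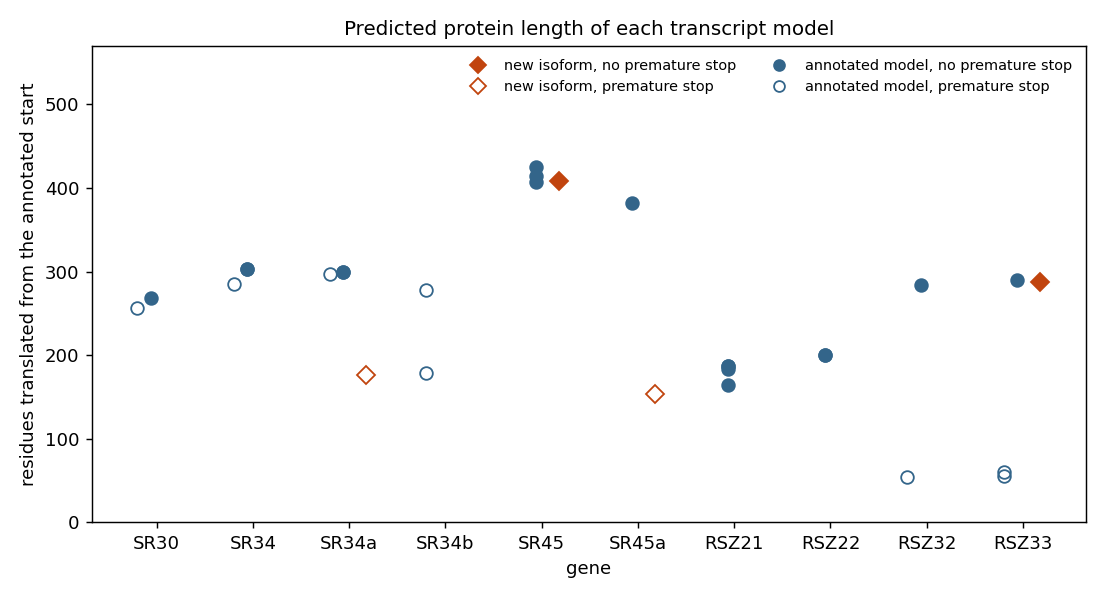
Residues translated from the annotated start codon (vertical axis) for each new isoform (diamonds) and each annotated model (circles) of the 10 genes, with open symbols for a premature stop. The new SR34a and SR45a isoforms lie at 176 and 154 residues with open symbols, and those of SR45 and RSZ33 lie at 408 and 288 residues beside their annotated models.

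The long intron of each gene was taken as its longest annotated intron between start and stop codon. It was longest in SR30 at 942 nt (chr1:2943227-2944168), followed by SR34 at 818 nt (chr1:628470-629287) and RSZ33 at 624 nt (chr2:15671601-15672224). RSZ32 had 488 nt (chr3:19835913-19836400), SR45a 425 nt (chr1:2259587-2260011) and SR34b 387 nt (chr4:1070887-1071273). SR45 had 275 nt (chr1:5676007-5676281), RSZ21 274 nt (chr1:8428331-8428604), SR34a 230 nt (chr3:18333987-18334216) and RSZ22 174 nt (chr4:15307264-15307437). The median coding intron of the same genes was between 92.0 nt in SR34 and SR34a and 139 nt in RSZ33. Of the 4 genes with the longest of these introns, only RSZ33 had a new isoform, and its change lay elsewhere.

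None of the 4 new coding introns overlapped the long intron of its gene, whereas 27.8% of coding new introns of all genes overlapped theirs. The new SR45a acceptor lay in an intron of 400 nt (chr1:2258603-2259002), the second longest of that gene. The new SR34a donor lay inside the longest intron of any kind in that gene, 929 nt in the 5′ untranslated region. The new introns of SR34a, SR45 and RSZ33 in coding sequence were short, at 71, 68 and 85 nt.

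**Figure D4:**
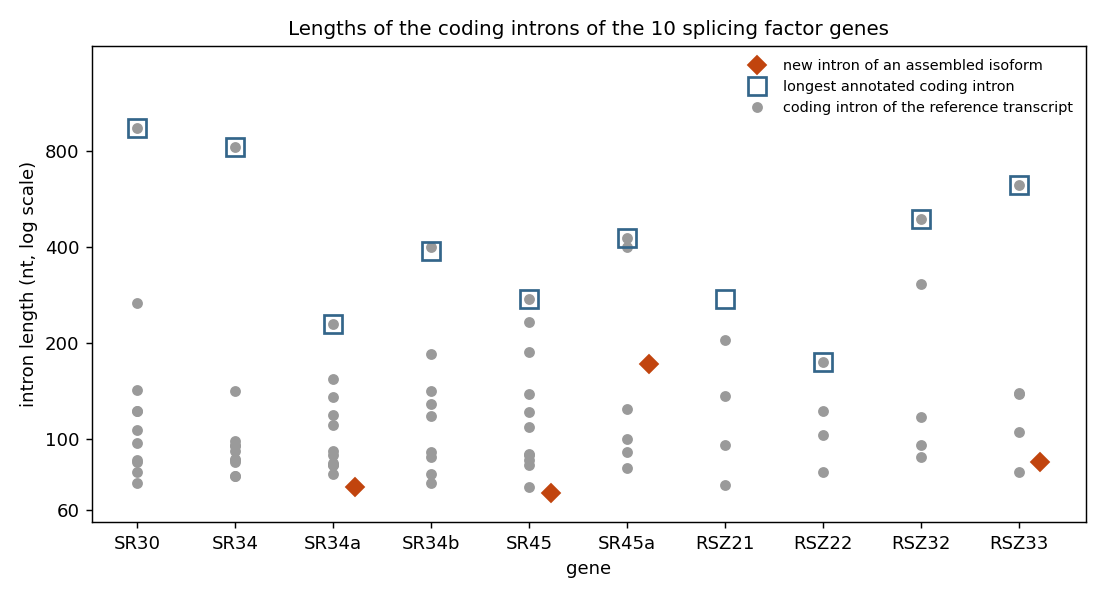
Length in nt (log scale) of each coding intron of the reference transcript (grey points), the longest annotated coding intron (open squares) and the new coding introns (diamonds) for the 10 genes. The 4 new introns, of 68 to 172 nt, lie well under the squares of their genes, which run over all 10 genes from 174 nt in RSZ22 to 942 nt in SR30.

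Annotated alternatives lay in the long intron in 5 of the 10 genes (SR30, SR34, RSZ21, RSZ32 and RSZ33), and other annotated alternatives lay elsewhere, as in SR34b, SR45 and SR45a. Of the 26 annotated transcripts in the merged set, 7 held exonic sequence within the long intron of their gene. The share was 18.2% over all genes with 2 or more annotated transcripts, as all 10 genes have. Of the 7, 4 had a premature stop, against 16.1% of such transcripts in all those genes. The other 4 premature annotated transcripts had no exonic sequence in the long intron. The 4 with exonic sequence there were 1 each from SR30, SR34, RSZ32 and RSZ33, and the remaining 3 of the 7 were from RSZ21 without a premature stop. Only AT1G23860.3 of RSZ21 (164 residues) splices that long intron of 274 nt whole. The RSZ21 reference form of 187 residues uses an intron of 205 nt. Of the other 4 premature transcripts, AT4G02430.2 of SR34b (278 residues) uses the long intron of 387 nt. The SR34b reference transcript uses one of 398 nt, whose acceptor lies 11 nt downstream, not a multiple of 3. Whether this sets the stop was not tested. The upstream acceptor lay 338 nt before the downstream one in SR30 and 353 nt before it in SR34. It lay 218 nt before the downstream one in both RSZ32 and RSZ33, and 69 nt in RSZ21. The newer annotation held 21 intron chains of 8 of the genes that the merged set lacks, and 0 of them matched a new isoform. Several of these concern the long introns of SR30, SR34, SR34b, SR45 and RSZ32.

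RSZ32 and RSZ33 are the closest of the pairs compared, with 84.6% identical residues in the alignment. All 5 coding introns stood at the same place, the long one after residue 36 in both. The stretches between upstream and downstream acceptor were 218 nt in each gene, and 178 of 206 aligned bases were identical (86.4%). The upstream acceptors of RSZ32 (chr3:19836121-19836150, minus strand) and RSZ33 (chr2:15671809-15671838, minus strand) are shown for this likeness, with the AG in capitals.
RSZ32: cttgaatgatcttgttgaAGgtttctgggg
RSZ33: cttgaatgatcttattgaAGgtctctggga

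The pair nevertheless differed in the assembled isoforms, since RSZ33 had 1 and RSZ32 (AT3G53500, chr3:19834343-19837088, minus strand) had 0. At the place of the changed RSZ33 intron, RSZ32 has an intron of 88 nt (chr3:19835282-19835369) with 1 annotated acceptor. No AG ends 6 nt downstream of it, where the bases are GG, and the nearest AG ends 4 nt downstream, a shift that does not keep the frame. The RSZ32 site (chr3:19835267-19835326, minus strand) can be read against that of RSZ33 above, with the annotated AG in capitals.
RSZ32: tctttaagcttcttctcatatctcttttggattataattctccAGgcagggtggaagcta

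SR30 (AT1G09140, chr1:2942564-2945961, minus strand), SR34 (AT1G02840, chr1:626741-629819, plus strand) and SR34b (AT4G02430, chr4:1068974-1072215, plus strand) had 0 new isoforms beside the 1 of SR34a. All are SRSF1-like SR proteins. SR34a shared 66.9% of aligned residues with SR34, 66.2% with SR34b and 68.5% with SR30. SR34 shared 81.2% with SR34b and 70.2% with SR30. The changed SR34a intron has a counterpart at the same place in each of them, with 92 nt in SR34, 118 nt in SR34b and 143 nt in SR30. The counterpart sites are shown because they differ around the position of the new SR34a acceptor, with annotated AGs in capitals. They are SR34 chr1:628067-628126 (plus strand), SR34b chr4:1070491-1070550 (plus strand) and SR30 chr1:2944572-2944631 (minus strand).
SR34: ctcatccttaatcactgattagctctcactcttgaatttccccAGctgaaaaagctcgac
SR34b: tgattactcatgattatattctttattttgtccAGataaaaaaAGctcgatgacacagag
SR30: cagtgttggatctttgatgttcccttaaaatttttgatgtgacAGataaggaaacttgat

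No AG ends 12 nt upstream of the acceptor in SR34, SR34b or SR30, where the bases are TT, CC and TT. SR34b has an annotated pair of acceptors at this intron, 10 nt apart, and the 12 nt were counted from the downstream one. The bases shown before its upstream acceptor hold no other AG. The upstream SR34b site (intron chr4:1070418-1070525) belongs to AT4G02430.1, the model with 178 residues and a premature stop. At the same intron, SR34a and SR34b each have a transcript with an early stop, after 176 and 178 residues. Their upstream acceptors are not counterparts by sequence. The bases after the upstream SR34b AG resemble those after the annotated SR34 AG, whereas the new SR34a AG lies upstream of its annotated one. The SR34a transcript was assembled and the SR34b one is annotated. In SR34a the stop lies in the added bases, and in SR34b it begins downstream of both acceptors, at chr4:1070541.

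Between SR30 and SR34, 8 of 11 coding introns of each gene stood at the same place in the alignment. The long introns follow residue 245 in SR30 and residue 266 in SR34, and they were not aligned to the same residue. In SR34b, an intron of 398 nt in the newer annotation stands at the place of the SR34 long intron, after residue 266 in both. It has the donor of the SR34b long intron of 387 nt and an acceptor 11 nt downstream. The SR30 and SR34 stretches between upstream and downstream acceptor had 204 of 295 aligned bases identical (69.2%). SR45 and SR45a shared 39.7% of aligned residues and no intron place, so their 2 new acceptors have no common position.

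RSZ21 (AT1G23860, chr1:8427356-8429498, minus strand) and RSZ22 (AT4G31580, chr4:15306654-15308347, plus strand) encode SR proteins with 1 zinc knuckle, related to human SRSF7. They shared 77.6% of aligned residues and all 4 coding intron places, and neither had a new isoform. RSZ21 had 1 of the 243 assembled transcripts of the set that match an annotated intron chain. It had the 6 exons of AT1G23860.1 but ran on for 1617 nt past the annotated 3′ end, to 3224 nt spliced, against 1541 nt for the longest annotated transcript. Its last exon, of 2359 nt, covered the whole of the single-exon neighbour AT1G23850 on the same strand (chr1:8425739-8427235) and ended at the last base of that gene. The genes are 120 nt apart as annotated, and AT1G23850 had 0 new isoforms. Whether reads cross that gap in 1 molecule was not tested.

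Among 10 further SR genes, 8 had a new isoform: SCL33 had 3, RS41 2, and RSZ22a, RS31, RS31a, RS40, SCL30 and SCL30a 1 each. SC35 and SCL28 had none. Among all genes with 6 to 14 annotated exons, a range that holds these genes, the share was 39.2%. The further SR genes had 11 new isoforms, 9 new introns and 4 retained introns. Of the retained introns, 2 are annotated forms of the same RS41 intron that differ in their acceptor. In the 10 genes described above, 0 of 5 new introns overlapped the long intron, against 8 of 9 in the further SR genes. They lay in RS31, RS31a, SCL30, SCL30a and SCL33, whose long introns are 705 to 1100 nt. In RS31, SCL30 and SCL30a, 2 of them flank new exonic sequence in the same intron of 1 isoform, so the 8 are not separate events. The 5 and the 9 each include 1 intron outside the coding span, in SR34a and RSZ22a, whereas the long intron lies within that span. In the 4 genes above with a new isoform, the long introns are 230 to 624 nt. Over all genes, 27.8% of coding new introns overlapped the long intron. A premature stop was found in 2 of 4 new isoforms of the 10 genes, against 9 of 10 translatable ones of the further SR genes and 49.1% in the whole set. Coding acceptors moved by a multiple of 3 nt in 4 of 4 cases in the 10 genes, against 3 of 5 in the further SR genes. These shifts are unlike in size, at 3 to 15 nt in the 10 genes and 126 to 626 nt in the further SR genes. In RS31, SCL30 and SCL30a a new donor in the same intron goes with the acceptor. The shift is therefore not the change in message length there. The difference between the sets was not tested. RSZ22a, a further gene of the RSZ subfamily, had 1 new intron of 112 nt (chr2:10451068-10451179), outside the coding span and with both sites new.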

How the data were processed

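The authors deposited 1 merged set of transcript models whose values are exon positions (unit "other"), per the file itself, with no value per library. Per the submitters' processing notes, CASAVA 1.8, TopHat2 and Cufflinks were used on build TAIR10. For the last 2 no version is given in the sources used here, and no setting for any. A merged, assembled set depends on the depth and the filters of the assembler, so an isoform that was not assembled may still exist.

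Sequence, start codons and the newer annotation came from TAIR10.1 (RefSeq). The builds were compared first: 32803 of 32807 nuclear genes overlapped their namesake on the same strand. The newer annotation shared 126616 of the 127854 nuclear introns (99.0%) and all 102 of the 10 genes. Of these 102, 101 were GT-AG, and 1 in SR34a was GC-AG.

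A new isoform is an assembled transcript with a shared junction and another structure (class j). New introns were compared with all annotated introns of the gene in the set. The reference transcript is the one with the longest coding sequence in the newer annotation. Stops more than 50 nt upstream of the last junction were called premature. Proteins were aligned globally (BLOSUM62, gap penalties 10 and 0.5). Python 3.11.15, Biopython 1.88 and numpy 2.4.6 were used, and the calls were tested on simulated data. All 10 genes are named, as are further SR genes and partners with a new isoform. The genes and lists were chosen with earlier results of these data known.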

Additional observations from a re-analysis of the deposited data

How the results depend on the processing

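Of 12 alternatives, 10 left the count reported or moved it by less than 1.5 times. The number of genes with a new isoform (4), of new isoforms (4) and of isoforms with a premature stop (2) held under each alternative run on it: other classes, assignment by shared splice site, the newer annotation, a distance of 55 nt and the longest open reading frame. New introns numbered 4 in place of 5 when those of the newer annotation were left out. New introns in the long intron numbered 1 in place of 0 when the long intron was the longest of any kind (the SR34a donor). They also numbered 1 with the second longest coding intron, an alternative chosen after seeing the data (the SR45a acceptor). No paired analysis was possible because the set holds no value per library, and for the same reason no library could be left out. Depth is unknown, so an isoform that was not assembled cannot be read as absent.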

Other observations

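Among 8 partners of SR proteins, 6 had a new isoform. The share was 19.0% over all annotated genes and 39.2% over those with 6 to 14 exons. That range holds every partner except MOS14, which has 27 exons. The difference was not tested. AFC1, a kinase of the LAMMER type that phosphorylates SR proteins, had 2. AFC2, a kinase of the same type, had 1, as did MOS14, the import receptor of SR proteins, the spliceosomal proteins U1-70K and U11-35K, and the cyclophilin CYP63. AFC3 and CYP59 had none. The partners held 7 new isoforms and 5 new introns, none of these introns in the long intron. A premature stop was found in 5 of the 7 isoforms, against 49.1% of translatable new isoforms in the whole set. U11-35K, a protein of the minor spliceosome, had a new acceptor 3 nt upstream of the annotated one (intron chr2:18014168-18014341, plus strand), the same shift as in SR45.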
